A study of Mus musculus with 2 samples.

Results

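The genes described here encode small leucine-rich proteoglycans (SLRPs), a family of secreted proteins of the extracellular matrix. The 10 members, taken by name, were Dcn, Bgn and Aspn of class I, Lum, Fmod, Prelp, Kera and Omd of class II, Ogn of class III and Podn of class V. They were 10 of the 19938 genes measured, and each was represented by 1 probe set that the platform annotation gives to that gene alone. Of the 10, 8 were above the level filter on both arrays, and Kera and Omd were under it on both.

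An SLRP consists of a curved stack of leucine-rich repeats, and most members carry chondroitin, dermatan or keratan sulphate chains. In skin, SLRPs coat collagen fibrils and regulate their diameter and spacing, and several of them also bind growth factors such as TGF-β or signal through cell surface receptors. Decorin is a major proteoglycan of the dermis, where fibroblasts make it.

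Cells were isolated from dorsal skin dermis of newborn C57BL/6 mice (postnatal day 0), grown for 24 h in medium with 10% serum and transfected for 48 h. The control group received control siRNA and the other group received siRNAs against β-catenin, both at a final 10 nM, with 1 array per group. The labels give no siRNA sequences and no number of pups or cultures, and untransfected cells were not analysed here. The cells are a primary culture of unsorted dermal cells, so a change in the share of a cell type and a change in RNA per cell cannot be told apart.

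The values are log2 RMA values, from robust multi-array average, which subtracts background, equalises the arrays' distributions and combines the probes for each probe set into 1 value. Each difference below is the β-catenin siRNA value minus the control siRNA value, on the log2 scale. A single array per group leaves no replicate error and allows no test, so no difference could be set against the spread between cultures. The target gene Ctnnb1 went from 10.48 with control siRNA to 9.34 with β-catenin siRNA, which is 45.2% of the control signal. A gene was kept if the higher of its 2 values reached 5.13, the median of all gene means, and 10197 genes were kept. Among them the median difference was -0.02 and the robust SD of the difference, a measure of its spread over genes, was 0.22.

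All 8 kept SLRP genes had a higher value after β-catenin siRNA, and their median difference was 0.59. Genes with a higher value made up 45.8% of all kept genes. Of the 8, 4 were at least 1.5-fold higher (a difference of 0.58 or more), namely Lum, Dcn, Aspn and Ogn, against 2.76% of all kept genes. Lum was also at least 2-fold higher, as were 0.912% of kept genes. No member was at least 1.5-fold lower, a size reached by 1.84% of kept genes. Over all 10 members, without the level filter, the median difference was 0.44, and the same 1.5-fold size was reached by 2.23% of all genes in the higher direction and 2.35% in the lower direction. The members were chosen with earlier results of these data known, so these shares describe them and are not a test.

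**Figure D1:**
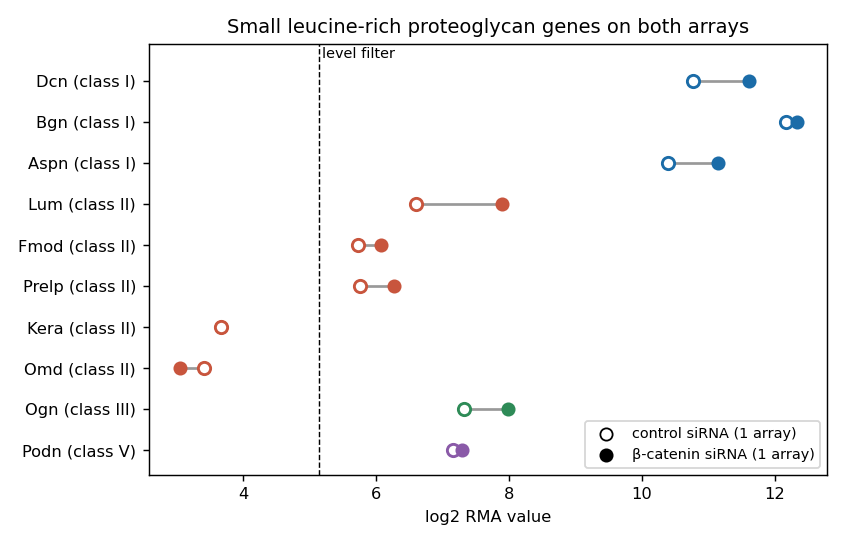
Log2 RMA values of the 10 SLRP genes (x axis) on the control siRNA array (open circles) and the β-catenin siRNA array (filled circles), 1 array each, coloured by class. The dashed line marks the level filter of 5.13. The 8 genes to its right have the filled circle to the right of the open one, by 0.13 (Podn) to 1.29 (Lum), while Kera has the same value on both arrays and Omd the filled circle to the left.

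Class I holds the proteoglycans that carry chondroitin or dermatan sulphate, together with asporin, and their median difference was 0.76. Dcn encodes decorin, which binds collagen fibrils and TGF-β and limits signalling of several receptor tyrosine kinases. Its value was 10.77 with control siRNA and 11.61 with β-catenin siRNA, a difference of 0.84 or 1.79-fold. This was rank 148 from the top among the 10197 kept genes. Among the 500 kept genes closest to it in level, the robust SD of the difference was 0.17.

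Aspn encodes asporin, a class I protein with a run of aspartate residues in place of glycosaminoglycan chains, which binds collagen and inhibits TGF-β. It was at 10.39 with control siRNA and 11.15 with β-catenin siRNA, a difference of 0.76 or 1.69-fold, at rank 174. Bgn encodes biglycan, the close relative of decorin that usually carries an additional glycosaminoglycan chain. It was at 12.17 and 12.33, a difference of 0.17 (1.12-fold), at rank 2073, where the robust SD of genes at that level was 0.16. The class thus held 2 genes past 1.5-fold and 1 whose difference was about as large as that spread.

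Class II includes the keratan sulphate proteoglycans lumican, fibromodulin and keratocan. Its members had the highest and the lowest difference of the 10, 1.29 (Lum) and -0.37 (Omd, under the level filter). Lum encodes lumican, a regulator of collagen fibril diameter in cornea and skin. Its value was 6.60 with control siRNA and 7.89 with β-catenin siRNA, a difference of 1.29 or 2.44-fold. It was at rank 53 of the kept genes, and 0.520% of them had a difference of that size or larger. Prelp encodes PRELP, a heparin-binding protein that anchors basement membranes to the underlying matrix. It was at 5.75 and 6.27, a difference of 0.51 (1.43-fold), just under the 1.5-fold size, at rank 356.

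Fmod encodes fibromodulin, which binds collagen type I and competes with lumican for a site on the fibril. It was at 5.72 with control siRNA and 6.08 with β-catenin siRNA, a difference of 0.37 (1.29-fold), at rank 685. The robust SD among genes of similar level was 0.26 for Fmod and 0.24 for Prelp, against 0.22 for Lum. The other class II genes stayed under the level filter on both arrays. Kera encodes keratocan, best known from the corneal stroma, and was listed at 3.66 on both arrays, with no difference. Identical values on the arrays were listed for 1168 of the 19938 genes (5.86%) and for 140 of the kept genes. Omd encodes osteomodulin, also called osteoadherin, a protein of mineralised tissues, and was at 3.41 and 3.04, a difference of -0.37. The robust SD among the nearest kept genes was 0.39 for both Kera and Omd. Those genes reached the level filter, which Kera and Omd did not, so 0.39 does not measure the spread at their level. Whether Kera and Omd were above background cannot be read from their values on the arrays. The median difference of class II was 0.51 over its 3 kept genes and 0.37 over all 5.

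Classes III and V had 1 member each. Ogn encodes osteoglycin, also called mimecan, a collagen-binding protein first purified from bone and found in many connective tissues. It was at 7.32 with control siRNA and 7.98 with β-catenin siRNA, a difference of 0.67 or 1.59-fold, at rank 217. It had the smallest difference of the 4 genes past 1.5-fold, and Prelp had the largest of those that were not. Podn encodes podocan, an SLRP of the non-canonical class V. It was at 7.16 and 7.30, a difference of 0.13 (1.10-fold), at rank 2485, and 24.4% of kept genes had a difference at least that high. In units of the robust SD of genes at their level, the difference was 5.98 for Lum, 4.99 for Dcn, 4.58 for Aspn, 3.36 for Ogn, 2.13 for Prelp, 1.41 for Fmod, 1.03 for Bgn and 0.62 for Podn.

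**Figure D2:**
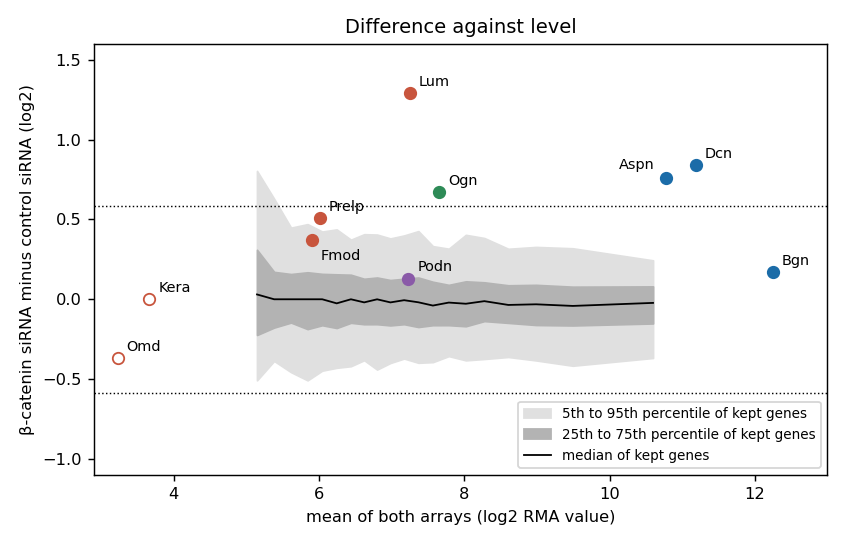
Difference between the arrays (y axis, β-catenin siRNA minus control siRNA, log2) against the mean of both arrays (x axis, log2 RMA value) for the 10 SLRP genes, filled where kept and open where under the level filter. Bands show the 5th to 95th and the 25th to 75th percentile of kept genes in 20 bins of level, the line their median, and dotted lines 1.5-fold. Lum, Ogn, Dcn and Aspn lie above the upper dotted line. Prelp lies below that line but above the outer band, and Fmod lies between the upper edges of the inner and outer bands. Podn lies near the edge of the inner band.

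SLRP genes lie next to each other in the mouse genome. In RefSeq's gene order by start coordinate (GRCm38.p6), Dcn, Lum, Kera and Epyc form a run with no other protein-coding gene between them. So do Ecm2, Aspn, Omd and Ogn, and Optc, Prelp and Fmod. Gene ends were not used, so a gene that spans a run would be placed outside it. Each run held genes with higher values and genes under the level filter. Dcn and Lum (0.84 and 1.29) were followed by Kera (0.00) and Epyc (-0.36), which were under the filter on both arrays. Aspn and Ogn (0.76 and 0.67) lay on either side of Omd (-0.37). Ecm2, which encodes an SLRP-related matrix protein and precedes Aspn, went from 3.66 to 4.30, a difference of 0.64 with both values under the filter. Prelp and Fmod (0.51 and 0.37) followed Optc (opticin, a protein of the eye), which was under the filter with a difference of -0.51.

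The kept genes next to these runs, and next to Bgn and Podn, which have no SLRP neighbour, were all within 1.5-fold. Of 20 measured genes in those places, 2 on each side, 11 were kept, and their median difference was 0.10. Most kept genes were within 1.5-fold too, as 2.76% of all kept genes were at least that much higher and 1.84% lower. Btg1, which encodes an antiproliferative protein and precedes Dcn, differed by 0.23, from 9.39 to 9.62. Nol8, which encodes a nucleolar protein and follows Ogn, was at 6.70 on both arrays, and Iars, an isoleucyl-tRNA synthetase gene beyond it, differed by -0.14. The largest difference among the 11 was that of Haus7, a gene for a subunit of the spindle-associated augmin complex next to Bgn, at 0.43.

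**Figure D3:**
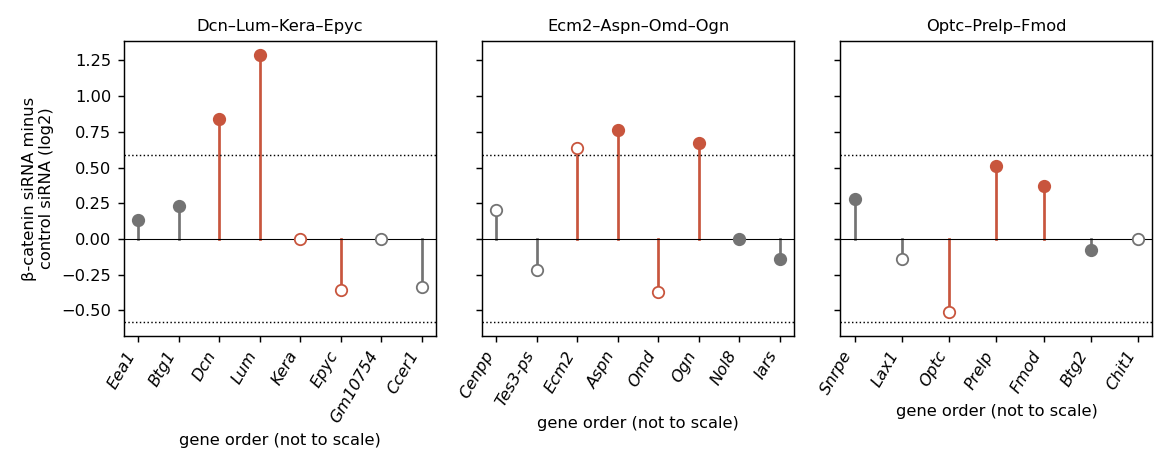
Difference between the arrays (y axis, β-catenin siRNA minus control siRNA, log2) for the measured genes of 3 SLRP gene runs (red) and the nearest 2 measured genes on each side (grey), in RefSeq gene order and not to scale. Filled circles are kept genes, open circles are genes under the level filter, and dotted lines mark 1.5-fold. The kept SLRP genes lie between 0.37 and 1.29, while the kept neighbours lie between -0.14 and 0.28.

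Promoters of 3 neighbouring members are shown because Aspn and Ogn had higher values and Omd, which lies between them, was under the filter. RefSeq's promoter table (GRCm38.p6) matched 8 of the 10 members with 9 start sites, all but Dcn and Lum. Each sequence is the 250 bases before the annotated start on the plus strand, 5′ to 3′. They come from chr13:49544193-49544442 (Aspn), chr13:49582212-49582461 (Omd) and chr13:49607765-49608014 (Ogn). Capitals mark matches on either strand to TATAAA, the letters of a TATA box, and to CTTTGA, the core of the site bound by the TCF/LEF partners of β-catenin.
Aspn: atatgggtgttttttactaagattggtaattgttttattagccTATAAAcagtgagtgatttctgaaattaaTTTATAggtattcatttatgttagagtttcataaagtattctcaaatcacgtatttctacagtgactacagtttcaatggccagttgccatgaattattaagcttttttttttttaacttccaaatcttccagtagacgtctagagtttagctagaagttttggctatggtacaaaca
Omd: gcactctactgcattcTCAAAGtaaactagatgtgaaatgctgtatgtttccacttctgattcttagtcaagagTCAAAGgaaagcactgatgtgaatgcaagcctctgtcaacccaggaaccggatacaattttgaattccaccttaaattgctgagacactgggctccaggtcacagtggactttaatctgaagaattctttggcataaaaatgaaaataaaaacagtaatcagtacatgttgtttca
Ogn: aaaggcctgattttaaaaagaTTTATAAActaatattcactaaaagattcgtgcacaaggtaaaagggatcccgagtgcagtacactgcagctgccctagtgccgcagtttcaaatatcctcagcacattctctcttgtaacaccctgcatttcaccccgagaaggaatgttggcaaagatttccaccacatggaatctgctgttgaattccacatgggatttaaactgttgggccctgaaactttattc

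TATAAA was found in the windows of Aspn and Ogn only, among the 9 windows, on both strands in each, and in Ogn these matches overlap. On the plus strand the match began 207 bases before the annotated start of Aspn and 227 bases before that of Ogn. The motif was in 12.4% of all 32851 promoter windows of that length. CTTTGA was found in the windows of Omd, with 2 matches on the minus strand, and of Bgn, with 1 match on the plus strand, against 13.8% of all windows. No window of the 9 held TGANTCA, the AP-1 site, which 6.75% of all windows held. Both strands were searched for each motif. A match is a run of letters and not evidence of binding or of a working TATA box.

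The SLRP genes outside the 10 members gave few usable values. Of 8 such genes listed, 7 were measured and 2 were kept. Podnl1, the podocan-like gene of class V, was at 5.85 and 5.34, a difference of -0.52, and Nyx, nyctalopin of the retina, was at 6.58 and 6.65, a difference of 0.06. Besides Ecm2, Epyc and Optc, the genes under the filter were Chad (chondroadherin of cartilage, 3.45 on both arrays) and Chadl (-0.44). Podnl1 thus had the opposite sign to Podn.

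Genes for the enzymes that build the sulphated chains were mostly close to or below their control values. Of all 10197 kept genes, 5386 had a lower value and 4671 (45.8%) a higher one, and the median difference was -0.02. Those at least 1.5-fold higher made up 2.76%, and those at least that much lower 1.84%. All 7 genes of the common linkage region, which joins a chain to its core protein, were kept, none differed by 1.5-fold, and the median was -0.04. B3gat3, the glucuronosyltransferase that completes the linkage, differed by -0.28, the galactosyltransferase gene B4galt7 by -0.13 and Pxylp1, a phosphatase gene, by -0.06. B3galt6, another galactosyltransferase gene, differed by 0.36, but its control value, 4.95, was below the filter, so it was kept only through its higher array. Of 14 kept genes for chondroitin and dermatan sulphate synthesis, 4 had a higher and 10 a lower value, with a median of -0.08. Chsy3, a chondroitin synthase, was at 6.40 with control siRNA and 5.41 with β-catenin siRNA, a difference of -0.99 or 1.99-fold lower, and it was the only gene of the list at that size. The sulphotransferase genes Chst11 and Chst12 differed by -0.44 and -0.37, and Chpf2, a chondroitin polymerising factor, by -0.25. Dse and Dsel, the epimerases that make dermatan from chondroitin sulphate and were looked at after their values were known, differed by 0.06 and 0.11.

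Keratan sulphate genes were likewise close to or below the control. Of 4 kept genes, 1 had a higher value and 3 a lower one, none reached 1.5-fold, and the median was -0.11. A higher value was seen for 45.8% of all kept genes. B3gnt2, which extends the chain with N-acetylglucosamine, differed by -0.43 and the sulphotransferase gene Chst2 by -0.13. The galactosyltransferase genes B4galt1 and B4galt4 differed by 0.10 and -0.10.

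Collagens, which SLRPs bind, differed little. Of 17 kept genes for collagen fibrils and their partners, 11 had a higher and 6 a lower value, and the median was 0.05. By comparison, 45.8% of all kept genes had a higher value. Only Dpt of the 17 reached 1.5-fold, as did 2.76% of all kept genes in the higher direction. It encodes dermatopontin, which binds decorin and collagen, and went from 8.97 to 10.10, a difference of 1.13 or 2.19-fold. Eln (elastin) differed by 0.50, Col5a3 by 0.40 and Col11a1 by -0.48. The genes for the chains of type I collagen, to which decorin binds, were at 12.77 and 12.71 (Col1a1) and at 12.71 and 12.67 (Col1a2), and were looked at after their values were known.

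Growth factors that SLRPs sequester went both ways. Of 7 kept genes, 3 were at least 1.5-fold lower and 1 at least that much higher, with a median of -0.17. Those sizes were reached by 1.84% and 2.76% of all kept genes. With lowess centring on level, 2 growth factor genes were at least 1.5-fold lower. Tgfb2 was at 6.17 and 5.40, a difference of -0.77, and Tgfb3 at 10.09 and 9.47, a difference of -0.61. Pdgfa, which encodes a platelet-derived growth factor chain, differed by -0.68. Bmp2 differed by 0.59, from 5.53 to 6.12, whereas Tgfb1, chosen after its value was seen, differed by 0.22.

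Receptors reported to bind SLRPs had a median difference of 0.29 over 12 kept genes, of which 9 had a higher value. Over all kept genes, 45.8% had a higher value and 2.76% were at least 1.5-fold higher. Tlr2, an innate immune receptor through which soluble biglycan and decorin can signal, was at 5.33 and 6.04, a difference of 0.70. It was the only receptor of the 12 at least 1.5-fold higher. Lrp1, an endocytic receptor that takes up decorin, differed by 0.53 and Met, the hepatocyte growth factor receptor, by 0.46. Kdr, a vascular endothelial growth factor receptor, differed by -0.51 and was kept only through its control value, 5.34.

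Proteases that can act on SLRPs held 5 genes at least 1.5-fold higher among 11 kept, none at least that much lower, and a median of 0.53. These were Mmp9 (7.55 to 8.91, difference 1.36), Mmp13 (1.15, with its control value, 4.18, below the filter), Adamts5 (0.97), Adamts1 (0.75) and Mmp2 (0.61). Without the level filter the median over all 14 measured was 0.19. Bmp1, chosen after its value was seen, encodes the proteinase that removes the propeptide of biglycan and osteoglycin, and differed by 0.05.

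Proteoglycans of other families went both ways. Of 16 kept genes, 10 had a higher and 6 a lower value, with a median of 0.26 and, over all 29 measured genes without the filter, of -0.01. Agrn, which encodes the basement membrane proteoglycan agrin, was at 5.75 and 6.67, a difference of 0.92, and Gpc3, a glypican, at 8.09 and 8.90, a difference of 0.81. Gpc1, another glypican, had a difference of -0.61 and was at 7.39 after β-catenin siRNA, but with lowess centring on level no gene of the list was 1.5-fold lower. Vcan, which encodes versican of the provisional matrix and of the dermal papilla, differed by 0.52. Whether the SLRP members differ from any of these lists was not tested, since 1 array per group allows no such test.

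**Figure D4:**
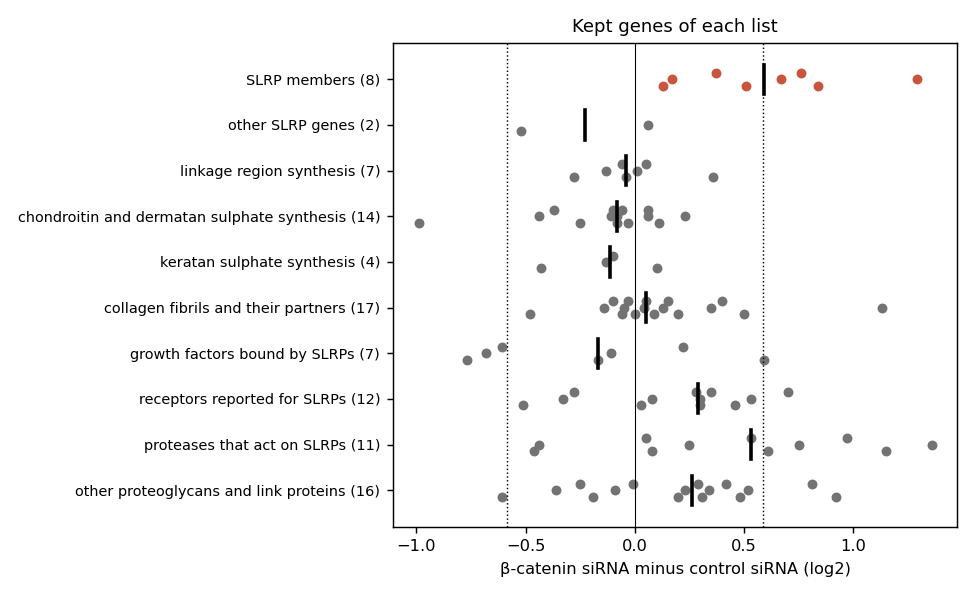
Difference between the arrays (x axis, β-catenin siRNA minus control siRNA, log2) for each kept gene of the SLRP members (red) and of 9 lists of related genes (grey), with the number of kept genes in brackets. Black bars are medians and dotted lines mark 1.5-fold. The 8 SLRP genes all lie to the right of 0 with a median of 0.59, while the medians of the lists lie between -0.23 and 0.53.

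Markers of the cells in the culture were checked against the label. All 13 fibroblast markers were kept on these arrays, with values from 5.24 to 12.77 on the control array and from 4.49 to 12.71 on the other, and a median difference of 0.07. Besides Dpt, Pdgfra, the receptor that marks dermal fibroblasts, was higher (9.83 to 10.59, difference 0.75), while S100a4 differed by -0.37. Fap, a fibroblast activation protease gene, differed by -0.76 and was kept only through its control value, 5.24. Some keratinocyte markers were also higher. Of 11 measured, 9 had a higher value and 1 a lower one, with a median difference of 0.20. Of the 5 kept, Krt5 went from 7.64 to 8.65, and Cdh1 (0.75) and Krt14 (0.62) were also at least 1.5-fold higher. That size was reached by 2.76% of all kept genes. Epcam differed by 0.50 but was kept only through its higher array, its control value being 4.76. The 11 ranged from 3.59 to 8.03 on the control array and from 3.75 to 8.65 on the other. The differentiation markers Krt1, Krt10 and Ivl were under the filter, as were Krt15, Trp63 and Dsg3. Krt15 was the 1 marker with a lower value (-0.55), and Trp63 differed by 0.01. The part of keratinocytes in the SLRP differences was not tested.

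Several members are known from cartilage, tendon or bone, so markers of those cells were read as well. Of 8 chondrocyte markers, 2 were kept, Sox9 (5.72 to 7.11, difference 1.39) and Col2a1 (0.13). Acan, Matn1, Matn3, Col9a1, Comp and Hapln1 were under the filter. Over all 8, 2 had a higher value and 5 a lower one, with a median of -0.13. Of 4 tendon cell markers, 3 were kept, with Tnmd, a tendon membrane protein gene, at -0.44, Scx at 0.20 and Mkx at 0.48, the last kept only through its higher array. None of the 3 osteoblast markers measured was kept (3.69 to 3.94 on the control array), nor any of 6 adipocyte markers or 2 Schwann cell markers. Of 8 pericyte and smooth muscle markers 5 were kept, with a median of -0.32, Myh11 at -0.68, Mcam at -0.42, Notch3 at -0.32 and Cspg4 at 0.20. Of 7 macrophage markers only Lyz2 was kept (4.75 to 5.38), through its higher array alone, and the other 6 had lower values. Of 7 endothelial markers only Kdr (-0.51) was kept, through its control value alone. Over all 7, 4 had a higher value and 2 a lower one, with a median of 0.04. Of 5 melanocyte markers 3 were kept, Tyrp1 (-0.38), Pmel (-0.27) and Dct (-0.01). The part of these cell types in the SLRP differences was not tested.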

How the data were processed

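Total RNA (300 ng, per the labels' protocols) was hybridised to 2 Affymetrix whole-transcript arrays, 1 per group. The authors deposited log2 values made with RMA, per the submitters' processing notes. Not given in the sources used here are the software, its version, the genome build and any filter, and the log2 scale was judged from the values (0.485 to 13.5). RMA leaves background in dim values, which draws their differences towards 0, and removes any overall difference in RNA yield.

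Of 28944 probe sets, 21789 had 1 gene symbol, 1621 several and 5534 none, and only the first were used. Symbols of 21698 were updated through RefSeq (GRCm38.p6). The probe set with the highest mean stood for a gene. Genes were counted by size only (1.5-fold and 2-fold). The robust SD is 1.4826 times the median absolute deviation. Text names all members, Ctnnb1, and in each of 9 related lists and 11 marker lists the kept genes past 1.5-fold or the 4 largest, with the other SLRP genes and the neighbours in gene order. Other names are marked as chosen later, and listed genes under the level filter are named only as such. Of the listed genes, 8 had no single-symbol probe set. The members and lists were chosen with earlier results of these data known. Counting and centring were checked on simulated data with a smaller spread than the real data. That check covers the code and not the error of the real values. Python 3.11.15, pandas 2.3.3, numpy 2.4.6 and statsmodels 0.14.6 were used. Alternatives were lowess centring (span 0.3), median centring, the mean of probe sets, no level filter and a filter at the 75th percentile of gene means.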

Additional observations from a re-analysis of the deposited data

How the results depend on the processing

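The number of SLRP genes at least 1.5-fold higher stayed at 4, and the number at least that much lower at 0, under all 5 alternatives. Only lowess and median centring could change a member's difference, since the filters change only which genes are counted. The median difference of the members ranged from 0.44 without the level filter to 0.71 with the stricter filter at 7.12, and no single member moved by more than 0.04. The class II median was 0.51 as reported and 1.29 with the stricter filter, which leaves Lum as the only class II gene. The class I median ranged from 0.76 to 0.80. In the related lists, the stricter filter left no receptor at least 1.5-fold higher and no chondroitin sulphate gene at least that much lower, because Tlr2 and Chsy3 lie below it. It likewise left no growth factor gene at least 1.5-fold higher, as Bmp2 lies below it, and 1 in place of 2 other proteoglycan genes, as Agrn does. No alternative reversed Ctnnb1 or a member past 1.5-fold, and in the lists only counts and medians were recomputed. No paired analysis was possible because each group has 1 array, and leaving out an array was not possible for the same reason. Every member has 1 probe set, so the probe set rule could not change a member's value. As a guide to scale, the between-array difference varied among probe sets of the same gene with a pooled SD of 0.16 over 594 genes. That SD leaves out differences between cultures. Signal over background could not be read for Kera and Omd, as detection calls were not used here.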
